A study of Mus musculus with 18 samples.

Results

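The genes that encode the protein part of the mitochondrial ribosome and the nuclear subunits of respiratory complexes I, II and III were followed in mouse embryonic stem cells exposed to adriamycin or to ultraviolet light. Members were the genes measured by probes with a single gene symbol that starts with Mrpl or Mrps and a number, or with Ndufa, Ndufb, Ndufc, Ndufs, Ndufv, Uqcr or Sdh. The rule used names and no measured value. It found 136 of the 19935 genes, on 153 probes: 77 genes of the mitochondrial ribosome, 48 of its large and 29 of its small subunit, and 59 of the respiratory chain. The latter held 36 genes named as complex I subunits, 7 complex I assembly factors (the Ndufaf genes), 8 genes of complex II and its assembly and 8 of complex III. In 16 genes several probes were available, and the brightest on average stood for the gene. Genes at or above the median gene level over the 18 arrays are called brighter genes here, and 132 of the 136 were among them.

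The mitochondrial ribosome translates the few proteins encoded in mitochondrial DNA, which are all core parts of the respiratory chain or of ATP synthase, while its own proteins and most respiratory subunits are encoded in the nucleus and imported. Complex I takes electrons from NADH, complex II (succinate dehydrogenase) takes them from succinate, and complex III passes them from ubiquinone to cytochrome c. Cultured pluripotent stem cells are known for a high rate of glycolysis, and their mitochondria are sparse in cristae. Adriamycin (doxorubicin) is a topoisomerase II poison that breaks DNA and activates p53, and ultraviolet light makes lesions in DNA that block the RNA polymerase that transcribes these genes.

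R1E, a mouse embryonic stem cell line, was mock treated, treated with 0.5 micromolar adriamycin or given 25 J/m2 UV, with 4 arrays per group and RNA taken at 8 hours. A separate set held p53-/- embryonic stem cells of background 129X1 x 129S1, untreated or with the same dose of adriamycin for 8 hours, with 3 arrays per group. Both sets were grown in serum medium with leukemia inhibitory factor, and the p53-/- set had no UV group. Nothing in the labels ties replicate arrays to independent cultures, and the spread behind every p-value may therefore be technical. Values were the deposited log2 intensities, and the sets were processed with different software, so levels were compared only within a set. Genotype, line, set and software cannot be told apart in any comparison across the sets, and p53 transcript itself was not analysed here.

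Of the 8 stem cell markers checked, all lay above the 75th percentile of genes on every R1E array and on every untreated p53-/- array, and 7 on every p53-/- adriamycin array. None of the 8 fibroblast markers did so in any R1E group, but 4 did in the untreated and 3 in the adriamycin p53-/- group, where the mean of the list on an array was between 7.29 and 7.63, against 5.15 to 5.33 in R1E. Of 8 markers of differentiated lineages none did so in R1E, but 2 did in the untreated and 1 in the adriamycin p53-/- group, and the mean of this list was between 6.71 and 6.89 there, against 5.29 to 5.85 in R1E. In R1E 3 of these 8 fell after adriamycin and 3 after UV. After adriamycin in R1E, 7 of the 8 stem cell markers fell, with a median log2 change of -0.52, and after UV 5 fell. The part of these marker shifts in the members' changes was not tested. Because these are bulk samples, fewer cells of a kind and less RNA per cell cannot be told apart. Among the p53-/- arrays, untreated replicate 3 lay low and untreated replicate 1 high. The median level of the 136 genes was 8.00 on replicate 3 and 8.46 on replicate 1. It was 8.28 on untreated replicate 2 and 8.27 to 8.31 on the adriamycin arrays.

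Promoter windows from RefSeq (assembly GRCm38.p6, 250 bases before to 50 after the annotated start) were found for 118 of the 136 genes. They were searched on both strands for letters typical of 4 regulators of mitochondrial genes: CGCANGCGC for NRF1, CCGGAAG for GABPA and other ETS factors, AAGATGGCG for YY1 and TCAAGGTCA for ESRRA. Overlapping matches were each counted. At least 1 of the 4 was present in 60.2% of the 118 windows, against 22.0% of the 15561 windows of measured genes and 15.8% of all 27025 windows. NRF1 letters were in 29.7% against 9.82% of the windows of measured genes, ETS letters in 30.5% against 12.5% and YY1 letters in 13 of 118 against 2.11%. ESRRA letters were in 1 window, that of Sdhd, against 0.302%. The mitoribosome and the respiratory chain were alike in this count, with 60.3% of 68 and 60.0% of 50 windows. A match describes the letters and is not evidence of binding.

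The 250 bases before the start are shown for 6 genes that the results turn on, written 5′ to 3′ on the strand of the gene, with matching letters in capitals. Within these stretches Mrps18b and Ndufa11 carry NRF1 letters, Mrps26 ETS letters, Mrpl36 YY1 letters and Sdhd both NRF1 and ETS letters, while that of Sdhaf1 holds none of the 4. The windows also hold NRF1 letters of Mrps26, ETS letters of Mrps18b and Sdhaf1 and ESRRA letters of Sdhd that do not lie wholly within the stretch shown. The windows are chr17:35916441-35916690 (minus strand) for Mrps18b, chr2:130563507-130563756 (plus) for Mrps26, chr13:73330759-73331008 (plus) for Mrpl36, chr17:56717512-56717761 (plus) for Ndufa11, chr9:50603850-50604099 (minus) for Sdhd and chr7:30322376-30322625 (minus) for Sdhaf1.
Mrps18b: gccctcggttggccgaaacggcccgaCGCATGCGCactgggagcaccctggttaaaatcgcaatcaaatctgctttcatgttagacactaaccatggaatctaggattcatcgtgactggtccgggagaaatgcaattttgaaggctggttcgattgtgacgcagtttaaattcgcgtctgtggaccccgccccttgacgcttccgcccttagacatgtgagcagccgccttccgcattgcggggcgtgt
Mrps26: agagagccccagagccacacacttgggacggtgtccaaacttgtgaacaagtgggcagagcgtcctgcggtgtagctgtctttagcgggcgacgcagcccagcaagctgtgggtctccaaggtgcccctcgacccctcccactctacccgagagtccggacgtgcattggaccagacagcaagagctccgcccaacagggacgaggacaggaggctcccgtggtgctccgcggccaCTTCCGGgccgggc
Mrpl36: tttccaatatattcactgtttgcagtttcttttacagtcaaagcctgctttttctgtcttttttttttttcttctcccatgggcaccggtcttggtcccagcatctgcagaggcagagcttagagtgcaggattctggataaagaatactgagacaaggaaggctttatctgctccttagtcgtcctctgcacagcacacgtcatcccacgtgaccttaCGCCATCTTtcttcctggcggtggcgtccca
Ndufa11: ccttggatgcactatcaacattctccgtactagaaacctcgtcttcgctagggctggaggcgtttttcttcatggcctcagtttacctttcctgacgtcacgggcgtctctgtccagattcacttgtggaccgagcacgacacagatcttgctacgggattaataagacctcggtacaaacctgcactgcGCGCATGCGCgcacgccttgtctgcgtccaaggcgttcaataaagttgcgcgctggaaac
Sdhd: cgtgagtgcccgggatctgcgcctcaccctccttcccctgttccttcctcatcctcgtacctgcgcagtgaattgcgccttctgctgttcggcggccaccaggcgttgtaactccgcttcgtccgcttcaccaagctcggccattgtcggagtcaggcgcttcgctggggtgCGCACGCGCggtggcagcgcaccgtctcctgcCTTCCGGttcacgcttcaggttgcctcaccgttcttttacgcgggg
Sdhaf1: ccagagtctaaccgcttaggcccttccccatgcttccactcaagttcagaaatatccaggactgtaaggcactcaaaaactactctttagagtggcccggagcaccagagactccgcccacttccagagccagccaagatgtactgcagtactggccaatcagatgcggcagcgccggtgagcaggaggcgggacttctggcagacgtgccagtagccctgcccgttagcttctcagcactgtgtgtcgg

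Adriamycin lowered many of these genes in R1E. Of the 136, 56 fell and 13 rose at an adjusted p below 0.05, with a median log2 change of -0.14 and no change as large as 2-fold. Over all genes 25.6% fell and 22.1% rose, with a median of -0.02. Among the 9968 brighter genes, where nearly all members lie, 41.7% fell and 28.1% rose, with a median of -0.08. The members' share of falls, 41.2%, was thus near that of genes of like level, while their share of rises, 9.56%, was below it. The mitoribosome had 36 falls and 5 rises among 77 genes (median -0.15) and the respiratory chain 20 falls and 8 rises among 59 (median -0.12). Setting every array to the same median shifted all adriamycin changes by -0.13. Such a shift cannot change the distance of the members' median from other medians: -0.12 from all genes and -0.06 from brighter genes. With it, 95 members fell and 8 rose. Over all genes it moved the share of rises among the calls from 46.3% to 25.4%.

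**Figure D1:**
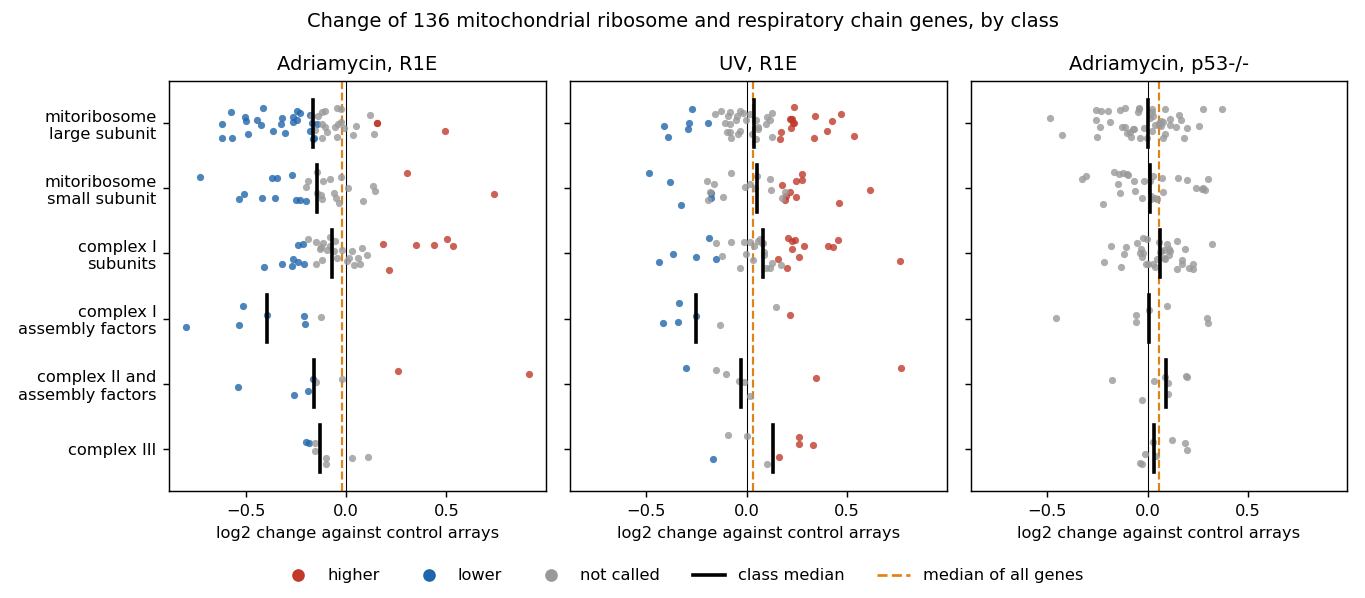
Log2 change of each of the 136 genes (points) in 3 comparisons, by class of gene. Red and blue points passed the test as higher or lower, black bars are class medians and the dashed line is the median of all genes. The complex I assembly factors of the rule, the Ndufaf genes alone, sit lowest after adriamycin in R1E (median -0.39). UV changes spread to both sides, and no point in p53-/- passed the test.

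In the large mitoribosomal subunit, 25 of 48 genes (52.1%) fell and 3 rose after adriamycin. Over all genes 25.6% fell and 22.1% rose, and among brighter genes 41.7% and 28.1%. Mrpl40 was at 9.58, 9.45, 9.36 and 9.47 on the mock arrays and at 8.89, 8.78, 8.90 and 8.81 after adriamycin. All adriamycin arrays lay below all mock arrays, and the change was -0.62 ± 0.05 (SE; n = 4 against 4; adjusted p = 5.0e-08). Mrpl15 fell by the same amount, -0.62 ± 0.07, from 8.73, 8.73, 8.57 and 8.77 to 8.20, 7.98, 8.15 and 8.01. The largest rise of this subunit was Mrpl16, from 8.52, 8.48, 8.46 and 8.36 to 8.91, 8.86, 9.03 and 8.99, a change of 0.49 ± 0.05 with no overlap. Mrpl12, a protein of the ribosomal stalk, fell by 0.42 on the log2 scale, while Mrpl41 did not pass the test (-0.01 ± 0.06, adjusted p = 0.94). The falls of Mrpl47 and Mrpl51 rest on 1 of their 2 probes: the dimmer probe did not pass the test for either (adjusted p = 0.66 and 0.57).

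In the small subunit 11 of 29 genes (37.9%) fell and 2 rose. Over all genes 25.6% fell and 22.1% rose, and among brighter genes 41.7% and 28.1%, so the share of falls was near that of brighter genes. Mrps18b, 1 of the mitochondrial variants of ribosomal protein S18, had the largest fall of the mitoribosome. Its mock arrays were at 10.24, 10.19, 10.16 and 10.11 and its adriamycin arrays at 9.32, 9.36, 9.57 and 9.54, a change of -0.73 ± 0.06, 1.66-fold lower, with no overlap (adjusted p = 2.3e-08). Mrps27, an RNA-binding protein of the pentatricopeptide repeat type, fell from 8.26, 8.18, 8.20 and 8.01 to 7.54, 7.51, 7.74 and 7.72 (-0.53 ± 0.08). Mrps12, the counterpart of the bacterial S12 protein of the decoding centre, fell by 0.51 from 7.45, 7.52, 7.56 and 7.84 to 7.11, 7.20, 6.94 and 7.07. Against these falls, Mrps6 rose from 8.15, 8.18, 8.09 and 8.28 to 8.81, 8.77, 9.01 and 9.06 (0.74 ± 0.07, adjusted p = 1.4e-07). Mrps26 rose by a smaller amount, 0.30 ± 0.05, and its groups did not overlap either.

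Among complex I genes the assembly factors and the subunits differed in their counts. Of the 7 assembly factors, which help build the complex and are not part of it, 6 fell and none rose, with a median of -0.39. Over all genes 25.6% fell and 22.1% rose, and among brighter genes 41.7% and 28.1%. The 7 are the Ndufaf genes only. Of 17 complex I and III assembly factors outside the rule, 5 rose and 4 fell after adriamycin. Ndufaf6 fell most of all 136 genes, from 6.73, 6.69, 6.59 and 6.64 to 5.81, 5.66, 6.13 and 5.87, a change of -0.80 ± 0.09 (1.74-fold lower, adjusted p = 7.4e-07). Ndufaf5, an enzyme that hydroxylates the subunit Ndufs7, fell from 5.04, 4.93, 5.04 and 4.98 to 4.41, 4.48, 4.54 and 4.42 (-0.53 ± 0.06). It had the lowest mean level of all members. Of the 36 subunits 8 fell and 6 rose, with a median of -0.07. The falls were led by the iron-sulfur subunits Ndufs8 (-0.41 ± 0.07) and Ndufs7 (-0.32 ± 0.06), and the core subunit Ndufs1 fell by 0.24. The rises were of accessory subunits: Ndufa11 by 0.53 ± 0.07, Ndufc2 by 0.50 ± 0.06, Ndufab1, also the acyl carrier protein of mitochondrial fatty acid synthesis, by 0.44 ± 0.07, Ndufb6 by 0.35, Ndufa10 by 0.22 and Ndufa8 by 0.18. Ndufa11 was at 8.69, 8.75, 8.65 and 8.92 on the mock arrays and at 9.28, 9.34, 9.26 and 9.26 after adriamycin, without overlap. Centred on array medians, 18 subunits fell and 4 rose, beside 9640 and 3281 of the 19935 genes. The near balance of directions in complex I thus depends on the scaling, as it does over all genes. The classes differed in their counts after UV too. There 4 of the 7 assembly factors fell and 1 rose (median -0.25), and of the 36 subunits 5 fell and 12 rose (median 0.08). Over all genes 21.2% fell and 22.6% rose after UV, and among brighter genes 35.7% and 28.3%. Centred, 5 assembly factors fell and 0 rose, and 8 subunits fell and 5 rose, beside 5678 and 3102 of all genes.

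Complex II held both the largest rise and a clear fall. Sdhaf1, which helps insert iron-sulfur clusters into Sdhb, rose from 8.80, 8.87, 8.82 and 8.91 to 9.81, 9.74, 9.77 and 9.73, a change of 0.91 ± 0.05 or 1.88-fold (adjusted p = 2.3e-10). Sdhb itself, the iron-sulfur subunit, fell from 8.42, 8.22, 8.20 and 8.23 to 7.66, 7.47, 7.87 and 7.92 (-0.54 ± 0.10, adjusted p = 0.00021). All adriamycin arrays were above all mock arrays for Sdhaf1 and below them for Sdhb. The flavoprotein subunit Sdha fell by 0.26 and the assembly factor Sdhaf2 by 0.19. The membrane anchor Sdhc fell by 0.17 with overlapping groups and lost its call in 7 alternative settings, and the other anchor, Sdhd, did not pass the test (-0.02 ± 0.07). In complex III only the Rieske protein Uqcrfs1 (-0.19) and the small subunit Uqcr11 (-0.20) fell among 8 genes, and none rose. Over all genes 25.6% fell and 22.1% rose, and among brighter genes 41.7% and 28.1%. The falls of Uqcrfs1 and Uqcr11 each lost their call in 5 alternative settings, among them the omission of single arrays. Centred on array medians, 5 of the 8 fell, beside 9640 of the 19935 genes.

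After UV the members moved to both sides. Of the 136 genes 44 rose and 22 fell, with a median log2 change of 0.05; over all genes 22.6% rose and 21.2% fell, and among brighter genes 28.3% rose and 35.7% fell. The mitoribosome had 25 rises and 11 falls and the respiratory chain 19 rises and 11 falls. The direction of this balance rests on the scaling: centred on array medians, which shifts every UV change by -0.08, 23 genes rose and 39 fell, and the share of rises among the calls of all genes went from 51.6% to 35.3%. Without UV replicate 1, 34 rose and 30 fell. Both treatments were set against the same mock arrays.

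The direction after UV went with the length of the gene. Members are short, with a median span of 7.87 kb from start to end of the transcribed region, against 17.7 kb for all genes, and 90 of them lie under 10 kb. Of these 90, 37 rose and 4 fell after UV, 41.1% and 4.44%. Of all brighter genes under 10 kb, 41.0% rose and 12.8% fell. Between 10 and 30 kb 6 of 34 members rose and 9 fell, where 34.6% and 23.6% of brighter genes did. Between 30 and 100 kb 1 of 9 rose and 6 fell, against 18.3% and 52.6%, and all 3 members over 100 kb, Mrps28, Ndufaf2 and Ndufs4, fell, as did 78.9% of brighter genes of that span. Across the 136 genes, which share arrays and are not independent replicates, Spearman's rho of span with the UV change was -0.49, and it was -0.46 across the 9957 brighter genes with a span. After adriamycin in R1E it was -0.03 across the members. The same held within each class, with -0.45 after UV in the mitoribosome and -0.54 in the respiratory chain.

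**Figure D2:**
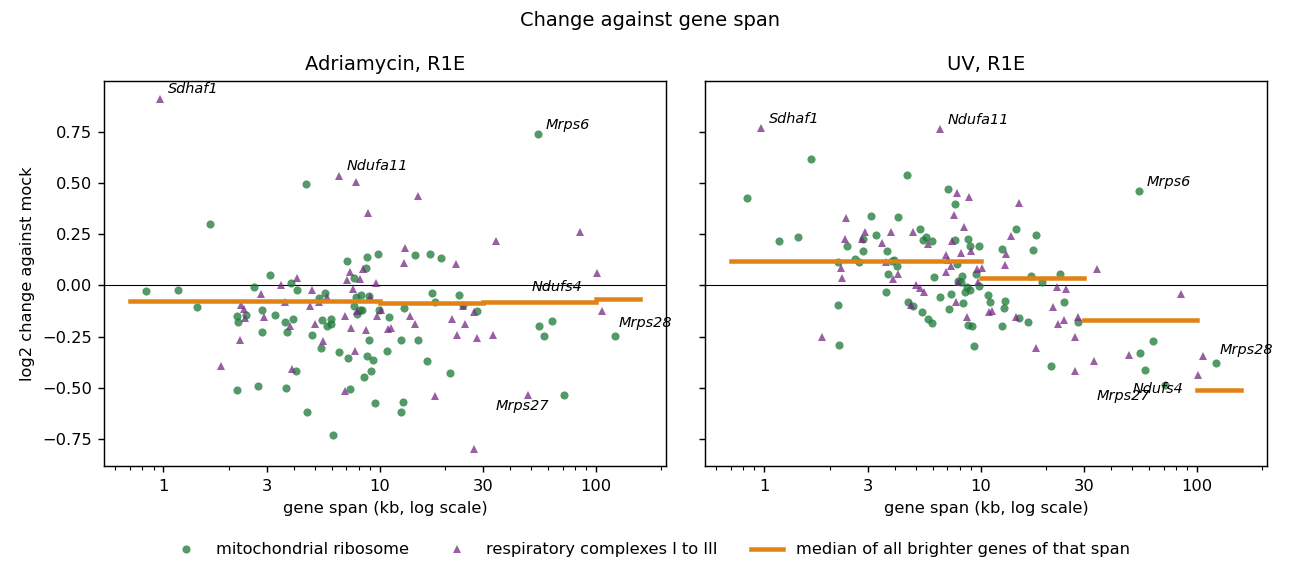
Log2 change after adriamycin (left) and UV (right) in R1E against gene span in kb on a log scale, with circles for mitoribosome and triangles for respiratory chain genes. Orange lines are the medians of all brighter genes in 4 classes of span. UV changes fall with span in members and in all brighter genes (medians 0.12 under 10 kb and -0.51 over 100 kb), and adriamycin changes do not; Mrps6 lies above the line at 53.9 kb in both.

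The longest members show the falls after UV. Ndufs4, an accessory subunit of the electron input arm of complex I, spans 100.3 kb and was at 9.14, 9.02, 8.91 and 8.95 on mock arrays, 8.71, 8.58, 8.51 and 8.47 after UV and 9.02, 8.86, 9.16 and 9.22 after adriamycin. Only the UV group lay apart from mock, with a change of -0.44 ± 0.08 (adjusted p = 0.0002) against 0.06 ± 0.08 after adriamycin. Mrps28, at 121.7 kb, fell by 0.38 and Ndufaf2, at 106.1 kb, by 0.34. After adriamycin Mrps28 fell too, by 0.25, a call lost in 11 alternative settings, and Ndufaf2 did not pass the test (-0.12). Of the 9 members between 30 and 100 kb, 5 fell and 3 rose after adriamycin, where 43.6% and 30.9% of brighter genes did. Sdhaf3, at 83.7 kb, did not pass the test after UV (-0.04 ± 0.09), and neither did Ndufa10 at 34.3 kb (0.08 ± 0.05). Mrps27, at 70.8 kb, fell from 8.26, 8.18, 8.20 and 8.01 to 7.87, 7.58, 7.66 and 7.59, a change of -0.49 ± 0.08 close to the -0.53 after adriamycin. Other falls were of Mrpl1 (57.2 kb, -0.41), Ndufs1 (33.2 kb, -0.37), Mrpl42 (21.1 kb, -0.39) and Ndufaf6 (27.2 kb, -0.42), each without overlap. Falls of shorter genes were few: Mrpl54, Ndufaf3, Ndufs6 and Mrpl47 were the 4 under 10 kb, and the dimmer of the 2 probes of Mrpl47 did not pass the test (0.03, adjusted p = 0.86). Mrps6, at 53.9 kb, ran against the trend and rose by 0.46 ± 0.07.

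Most rises after UV were of short genes, 37 of the 44 lying under 10 kb. Sdhaf1, at 0.967 kb, rose to 9.71, 9.57, 9.65 and 9.53 from the mock values of 8.80 to 8.91, a change of 0.77 ± 0.05. Ndufa11, at 6.49 kb, rose by 0.76 ± 0.07 to 9.48, 9.68, 9.45 and 9.45. Mrps26, at 1.64 kb, rose by 0.61 ± 0.05 from 9.18, 9.05, 9.09 and 9.18 to 9.64, 9.75, 9.82 and 9.74. None of these 3 genes overlapped between the groups. The 5 shortest members were Mrpl34, Sdhaf1, Mrps34, Mrpl43 and Mrps26, between 0.828 and 1.64 kb, and all 5 rose after UV, Mrpl34 by 0.43, Mrps34 by 0.22 and Mrpl43 by 0.24. After adriamycin only Sdhaf1 and Mrps26 of the 5 rose, and the other 3 did not pass the test (-0.02, -0.02 and -0.11). In complex II Sdhd rose by 0.34 ± 0.07 and Sdhb fell by 0.30 ± 0.10, a call that was lost without mock replicate 1 or UV replicate 4. In complex III Uqcr10, Uqcr11, Uqcrq and Uqcrh, all small subunits, rose by 0.33, 0.26, 0.26 and 0.16, and the core protein Uqcrc2 fell by 0.17.

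Adriamycin and UV were then compared with each other, with the mock arrays entering through the shared spread alone. Adriamycin arrays were lower than UV arrays for 65 of the 136 genes and higher for 7, with a median difference of -0.17; over all genes 22.2% were lower and 19.8% higher, with a median of -0.04. Centred on array medians, 82 were lower and 3 higher, and the share of higher calls over all genes went from 47.2% to 34.7%. Of the brighter genes under 10 kb, 54.5% were lower, beside 53 of the 90 members under 10 kb. Those 53 were 34 of 54 mitoribosome and 19 of 36 respiratory chain genes. Mrps18b differed most, by -0.77 ± 0.06: its UV arrays, at 10.26, 10.24, 10.22 and 10.15, overlapped mock and lay above all adriamycin arrays. Mrpl36, the counterpart of bacterial L36, differed by -0.66 ± 0.06, with UV arrays at 9.42, 9.29, 9.29 and 9.13 and adriamycin arrays at 8.61, 8.58, 8.60 and 8.69. Ndufaf4 differed by -0.66, Mrpl22 by -0.63 and Mrps12 by -0.62. The higher genes were Ndufs4 (0.50 ± 0.08), Sdhaf3 (0.30), Mrps6 (0.28), Mrpl1 (0.17), Mrpl21 (0.15), Sdhaf1 (0.14) and Ndufa10 (0.14). The last 3 lost their call in 7, 7 and 12 alternative settings.

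**Figure D3:**
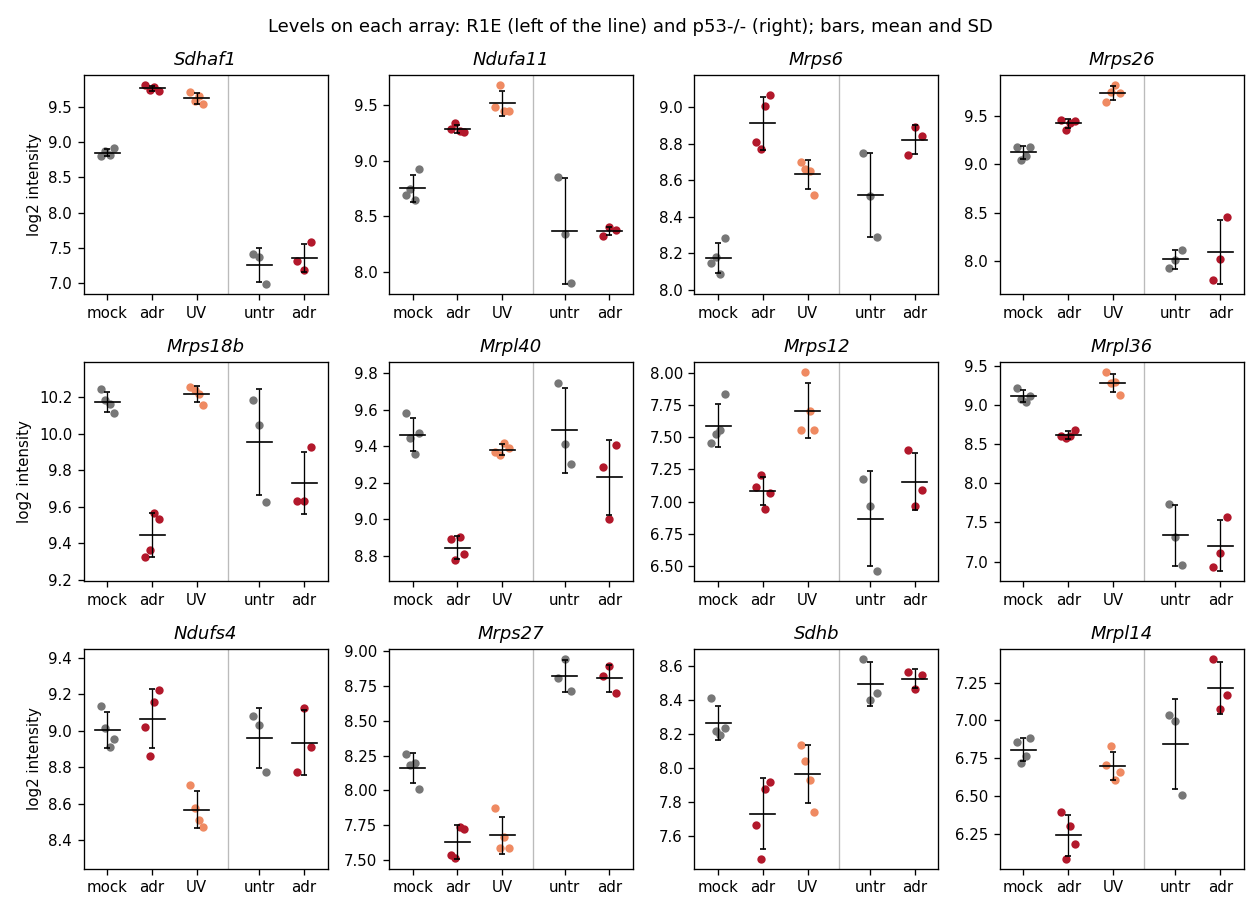
Log2 intensity on each array for 12 genes in the 5 groups, with R1E left of the line and p53-/- right of it; adr is adriamycin, untr is untreated, and bars give the mean and SD. Each panel has its own axis. Sdhaf1, Ndufa11, Mrps6 and Mrps26 sit above mock after both treatments in R1E, Mrps18b, Mrpl40, Mrps12 and Mrpl36 sit low after adriamycin only, and Ndufs4 sits low after UV only.

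Within each array the mean of the 77 mitoribosome genes can be set against the mean of the 59 respiratory chain genes, which no shift of a whole array affects. This difference was -0.07, -0.08, -0.08 and -0.08 on the mock arrays and -0.14, -0.16, -0.17 and -0.19 after adriamycin, so the groups did not overlap. After UV it was -0.12, -0.07, -0.09 and -0.09, which overlaps mock. In p53-/- it was -0.13, -0.11 and -0.08 untreated and -0.19, -0.17 and -0.14 after adriamycin, also without overlap. These are descriptions of the arrays and carry no test, since the members were chosen as groups.

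**Figure D4:**
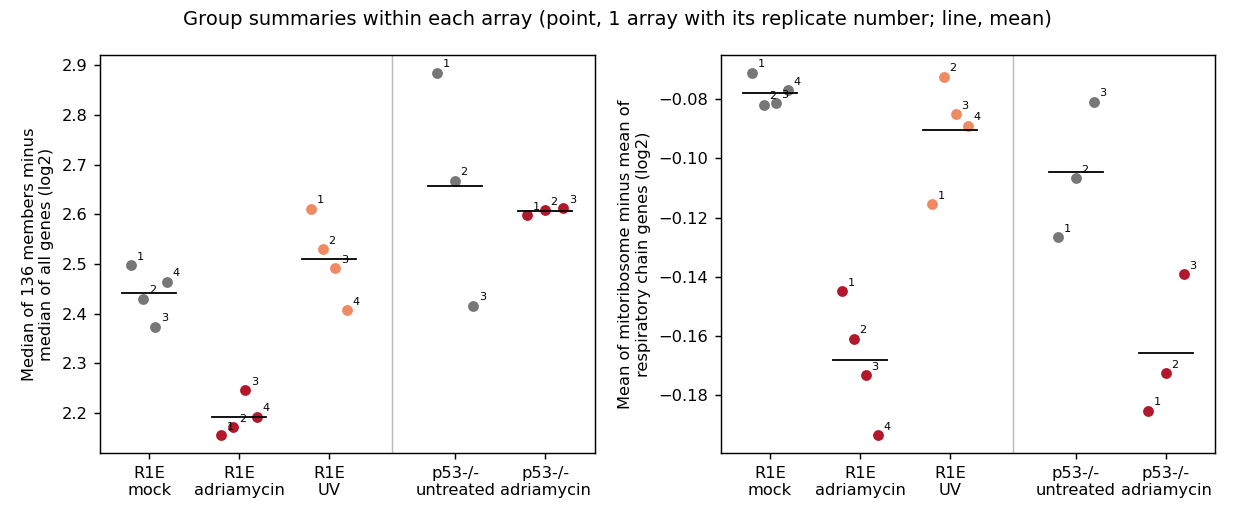
For each of the 18 arrays, the median of the 136 genes minus the median of all genes (left) and the mean of mitoribosome minus the mean of respiratory chain genes (right), both in log2, with replicate numbers beside points. In R1E all adriamycin arrays lie below all mock arrays in both panels. In p53-/- all adriamycin arrays lie below all untreated arrays only in the right panel, and the groups overlap in the left.

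Adriamycin in p53-/- cells changed none of the 136 genes in limma's test. Over all genes 0.015% rose and 0.0803% fell, 3 and 16 genes, so few calls were made of any kind. At an unadjusted p below 0.05 there were 4 members, Mrpl17, Ndufaf4, Mrpl20 and Mrpl14. The median change was 0.02 against 0.06 over all genes. The median SE of a member's change was 0.16 there and 0.07 in R1E, so a change of the size seen in R1E had a wider interval. Without adriamycin replicate 1 or 2 no gene at all was called, and without replicate 3 only 1 was. In a fit that took in all 18 arrays, 2 members rose and 3 fell, where 1478 of all genes rose and 784 fell. That fit shared 1 spread over both sets although the p53-/- arrays vary more, so its calls are not read as changes. Without untreated replicate 3, which lay low, the median became -0.12 and Mrpl17 (-0.58 ± 0.13) and Mrpl47 (-0.59 ± 0.14) fell. Over all genes 135 then rose and 307 fell. Without untreated replicate 1, which lay high, the median was 0.14. The sign of the members' median in p53-/- thus depends on single arrays.

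The adriamycin effect was tested for a difference between R1E and p53-/-, with a test that made more false calls on simulated data than its threshold allows. Of the 136 genes 8 had a lower effect in R1E and Sdhaf1 alone a higher one, where 11.4% of all genes were lower and 10.4% higher. Among brighter genes 17.7% were lower and 14.3% higher. For Mrpl14 the p53-/- arrays were at 7.03, 7.00 and 6.50 untreated and 7.40, 7.07 and 7.17 with adriamycin, while R1E fell from 6.86, 6.72, 6.77 and 6.89 to 6.39, 6.09, 6.30 and 6.18. Its difference of effects was -0.94 ± 0.18 (adjusted p = 0.00092). Sdhaf1 differed by 0.81 ± 0.16 (adjusted p = 0.0021), with p53-/- arrays at 7.42, 7.37 and 6.99 untreated and 7.31, 7.20 and 7.58 with adriamycin. Sdhb stayed at 8.64, 8.40 and 8.44 and 8.57, 8.47 and 8.55 in p53-/-, and its difference was -0.57 ± 0.16. Ndufaf5, Mrps12, Mrps5, Mrpl45, Mrps27 and Mrps18b differed by -0.83, -0.80, -0.65, -0.52, -0.52 and -0.51. The count of lower effects was 22 without p53-/- untreated replicate 1, where 1902 of all genes were lower. It was 4 without adriamycin replicate 1 or 2, where 1545 and 1589 of all genes were, against 2266 with all arrays. Leaving out any 1 of the 3 p53-/- adriamycin arrays ended the call for Ndufaf5 (adjusted p up to 0.118), leaving out replicate 1 or 2 ended it for Mrps27 and leaving out replicate 1 ended it for Mrps12. Array weights ended it for Sdhb. Without untreated replicate 3, 8 were lower and 7 higher, where 2473 of all genes were lower and 2505 higher. The higher then included Ndufa11 (0.76), Ndufab1 (0.75) and Ndufc2 (0.70) beside Sdhaf1 (0.94). The members' median difference was then -0.01, against -0.08 over all genes. With all arrays these medians were -0.14 and -0.07, so their order depends on this array. For Mrps18b, p53-/- arrays were at 10.18, 10.05 and 9.63 untreated and 9.63, 9.63 and 9.93 with adriamycin, an overlap, and its difference had an adjusted p of 0.047.

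Several subunits with central roles did not pass the test. Uqcrc1, a core protein of complex III, was at 0.11 after adriamycin and 0.10 after UV, as log2 differences from mock. Ndufv1, which binds NADH and flavin in complex I, was at -0.08 and -0.01. Its UV replicate 1, at 9.63, lay below the others, at 10.07 to 10.12, and without it the UV difference was 0.10 ± 0.07. Ndufa4, named for complex I but later assigned to complex IV, was at 0.03 and 0.12, and its relative Ndufa4l2 by -0.13 and 0.02. Mrpl41 was at -0.01 and 0.13. None of these 5 passed the test in any of the comparisons with mock or untreated arrays.

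Lists of other mitochondrial genes gave the setting. Beside them, 25.6% of all genes fell and 22.1% rose after adriamycin, and 21.2% fell and 22.6% rose after UV. Among brighter genes 41.7% fell and 28.1% rose after adriamycin, and 35.7% fell and 28.3% rose after UV. No list was tested against these shares, and several lay near them. Of 14 complex IV subunits 2 rose and 1 fell after adriamycin and 5 rose and none fell after UV; Cox6b2, a subunit typical of testis, rose 1.78-fold and 2.29-fold. Of 19 ATP synthase genes 2 rose and 1 fell, then 7 rose and 2 fell. Among 17 complex I and III assembly factors outside the rule, 5 rose and 4 fell after adriamycin, with Acad9 up by 0.98 and Bcs1l down by 0.32 on the log2 scale, and 7 rose and 3 fell after UV. The list of mitochondrial translation factors and tRNA synthetases, which serve the mitoribosome, had 13 falls and 5 rises among 25 genes after adriamycin and 11 falls and 4 rises after UV, led by Fars2 after UV (-1.16). Of 19 mitoribosome proteins and assembly factors outside the rule 9 fell and 2 rose after adriamycin and 2 fell and 6 rose after UV, with Gadd45gip1 at -0.58 after adriamycin. Of 16 complex IV assembly factors 4 rose and 3 fell after adriamycin and 7 rose and 1 fell after UV. Of 12 genes of mitochondrial DNA transcription and replication 3 rose and 6 fell, then 4 and 4, with Top1mt, the mitochondrial topoisomerase, up by 1.56 and 0.96. Of 13 protein quality control genes 1 rose and 8 fell, then 2 rose and 5 fell. Of 10 mitochondrial p53 targets 6 rose and 3 fell, then 7 rose and 1 fell; these were chosen as p53 targets and are not independent evidence of direction. None of these 9 lists had a gene called after adriamycin in p53-/-, where 3 of all genes rose and 16 fell.

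**Figure D5:**
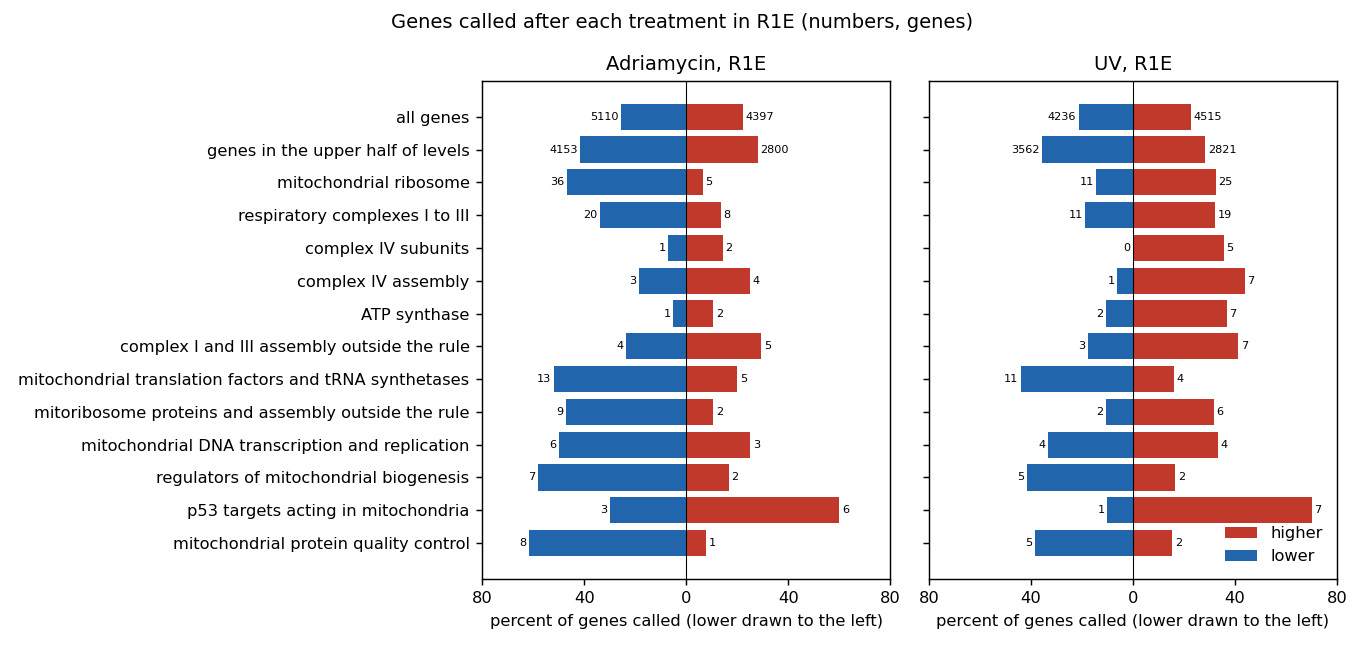
Percent of genes called higher (red, right) and lower (blue, left) after adriamycin and UV in R1E, with gene numbers at the bars, for all genes, brighter genes, both classes of member and 10 other lists. After adriamycin falls outnumber rises in both classes of member, among all genes and brighter genes, and in some of the other lists but not all. After adriamycin 3 of 14 complex IV subunits and 3 of 19 ATP synthase genes were called.

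Regulators of mitochondrial biogenesis were the 10th list, to be read beside the same shares over all and brighter genes. Among 12 genes it had 7 falls and 2 rises after adriamycin, 5 falls and 2 rises after UV and 1 fall in p53-/-. That fall was of Nrf1. NRF1 letters were in 35 of the 118 promoter windows and ETS letters in 36, and an effect of Nrf1 on the members was not tested. In R1E Nrf1 was at 7.94, 7.72, 7.80 and 7.77 on mock arrays, 6.73, 6.62, 6.65 and 6.80 after adriamycin and 7.39, 7.40, 7.31 and 7.35 after UV. The 3 groups did not overlap, and the changes were -1.11 ± 0.06 after adriamycin (adjusted p = 7.7e-11) and -0.44 ± 0.06 after UV. In p53-/- it fell from 7.40, 7.29 and 6.78 to 6.05, 6.06 and 6.01, a change of -1.12 ± 0.16 (adjusted p = 0.024), and the difference between the lines was 0.01 ± 0.17. The call in p53-/- held without untreated replicate 3 and was lost without any 1 of the other 5 arrays of that set, where its adjusted p was 0.103 to 0.237. Of the 35 members with NRF1 letters, 15 fell and 5 rose after adriamycin in R1E (median -0.14). Of the 83 without them, 34 fell and 8 rose (median -0.15). In p53-/- the medians were 0.06 and 0.03. No test was made of this split by sequence.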

How the data were processed

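RNA of 18 samples of mouse embryonic stem cells was measured on whole-transcript expression arrays, 12 from R1E and 6 from p53-/- cells. The values are the authors' deposited log2 intensities. The submitters' processing notes name Affymetrix Expression Console 1.1 for R1E, and RMA with Partek 6.4 for p53-/-. Which algorithm Expression Console ran, and the genome build of the array, are not given in the sources used here. Intensities give no counts, so precision is limited by the number of arrays. Of 28853 probes, 28815 had values on all arrays, 21780 of these named 1 gene symbol, 1605 several and 5430 none. The probe with the highest mean was used for each of 19935 genes.

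Groups came from the labels. R 4.3.3 and limma 3.58.1 (lmFit, eBayes) were used without further normalization, in 1 fit per set (12 and 6 arrays). Calls required an adjusted p (Benjamini-Hochberg, over all genes) below 0.05. The difference of the adriamycin effects used each set's own moderated variance and Satterthwaite degrees of freedom; on simulated data this test made more false calls than its threshold allows. ± values beside changes are standard errors. Gene span came from RefSeq (GRCm38.p6).

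Named genes were, per comparison and class, the called genes with non-overlapping groups and the largest change, 2 in each direction, the 3 largest differences of effects per direction, a fixed panel of 16 genes, the 5 longest and 5 shortest members and, in each other list, up to 2 called genes per direction; other members named were chosen after their values were seen. Members and lists were chosen with earlier results of these data known. The NRF1 and YY1 letters searched are 1 letter shorter than first planned. The replicate numbers were checked for pairing: deviations of same-numbered arrays correlated between -0.14 and 0.19, so no pairing was used. Alternatives were quantile normalization, centring on array medians, a filter on dim genes, the mean of a gene's probes, other eBayes settings, a fold threshold, a replicate block, other arrays in the fit, and leaving out each array.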

Additional observations from a re-analysis of the deposited data

Results flagged for a closer look

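For 51 genes named by rule and 3 medians (all members, mitoribosome, respiratory chain), each R1E group of 4 arrays was checked for an array far from the other 3. Of 162 such groups, 7 held one, and chance marks about 1 group in 20. Mrpl43 was at 7.38 on adriamycin replicate 3, with the others between 7.61 and 7.62. Ndufa11 was at 9.68 on UV replicate 2, with the others between 9.45 and 9.48. Ndufs1 was at 10.17 on mock replicate 4 against 10.29 to 10.30, Ndufs8 at 7.89 on mock replicate 1 against 7.80 to 7.81, and Uqcr11 at 7.97 on mock replicate 4 against 7.70 to 7.71. Ndufv1 was at 9.63 and Sdhaf3 at 5.57 on UV replicate 1, against 10.07 to 10.12 and 5.30 to 5.33.

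A difference in the adriamycin effect between R1E and p53-/- passed the test for 9 genes. On simulated data this test made more false calls than its threshold allows. The effect in R1E was lower by -0.94 for Mrpl14, -0.83 for Ndufaf5, -0.80 for Mrps12, -0.65 for Mrps5, -0.57 for Sdhb, -0.52 for Mrpl45, -0.52 for Mrps27 and -0.51 for Mrps18b. It was higher by 0.81 for Sdhaf1. Their adjusted p-values lay between 0.00092 (Mrpl14) and 0.047 (Mrps18b). The calls of Ndufaf5, Mrps27 and Mrps12 were lost without single p53-/- adriamycin arrays, and that of Sdhb with array weights. Line, genotype, set and software cannot be told apart in these differences.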

How the results depend on the processing

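Of the 164 named results, each tried under the alternatives, none turned its direction with a call; 86 values lost a call and 54 gained one. Centred on array medians, 8 members rose and 95 fell after adriamycin in R1E (median -0.27) and 23 rose and 39 fell after UV (median -0.027), and 3 were higher against UV. With a change of at least 1.2-fold also required, 8 rose and 33 fell after adriamycin, 18 rose and 14 fell after UV, and 3 were higher against UV. This condition was applied to members only. No count over all genes stands beside these numbers, so they cannot be set against the general response. With all 18 arrays in the fit, 2 members rose and 3 fell in p53-/-, beside 1478 and 784 of all genes. The spread of that fit was shared with the less variable R1E arrays. For the difference of effects the higher and lower counts were 5 and 15 with quantile normalization, beside 2326 and 2376 of all genes. They were 5 and 14 with 1 shared spread, beside 2571 and 3233 of all genes. The main fit had 2065 and 2266 of all genes. The count of higher effects was 3 without dim genes and 2 with the mean of probes, with trend and robust settings or with array weights. With the degrees of freedom of the smaller set, chosen after seeing the data, 1 was higher and 7 lower. Leaving out 1 array at a time gave 11 to 14 rises, 43 to 58 falls and a median of -0.16 to -0.12 after adriamycin in R1E. The 43 falls came without adriamycin replicate 2, where 4816 of all genes fell, and the 58 without UV replicate 1, where 5163 did. After UV it gave 33 to 45 rises, 15 to 30 falls and 0.03 to 0.09. The 15 falls came without UV replicate 4, where 3994 of all genes fell, and the 30 without UV replicate 1, where 4202 did. Against UV it gave 4 to 8 higher, 57 to 74 lower and -0.22 to -0.13. In p53-/- it gave 0 rises, 0 to 2 falls and -0.12 to 0.14. For the difference it gave 1 to 7 higher, 4 to 22 lower and -0.25 to -0.01. Calls over all genes moved too: 1545 had a lower effect without p53-/- adriamycin replicate 1 and 2473 without untreated replicate 3. With the replicate block 12 rose and 53 fell after adriamycin, beside 4374 and 5050 of all genes. After UV 44 rose and 21 fell, beside 4462 and 4215. Against UV 5 were higher and 67 lower, beside 3901 and 4341. In p53-/- 0 were called, and in the difference 1 was higher and 9 lower, beside 2095 and 2297. The cause of these shifts was not tested. Intensities near background limit what dim members can show, and 4 arrays or fewer limit the rest.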
